A study of Nothobranchius furzeri and Aphyosemion australe and Iconisemion striatum with 145 samples.

Results

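The nuclear genes of oxidative phosphorylation were examined in embryos of the African turquoise killifish (Nothobranchius furzeri), a short-lived annual fish whose embryos can suspend development in diapause. The genes were chosen from the deposited count table by a fixed set of name stems. The stems cover subunits and some dedicated assembly factors of respiratory complexes I to IV and of ATP synthase (complex V). Of 25122 genes, 61 met that rule. Further assembly factors, 18 of them present by row name, fall outside those stems and are described separately. By complex, the rule found 41 genes of complex I (7 core subunits, 27 accessory subunits and 7 assembly factors) and 8 of complex II (4 subunits and 4 assembly factors). Another 12 carry complex V names, of which 10 are subunits. The remaining genes, atp5s and atp5sl, were not counted as subunits of complex V and were kept apart. The rule found none of complexes III and IV, since the genes found later for those stems stand in the table under numbered identifiers. A further 40 genes were therefore added through the RefSeq symbol of their identifier. They are described as added genes throughout, and they supply all values for complexes III and IV. Only 5257 of the 14589 numbered identifiers carry a symbol, so genes of these complexes may be missing.

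Oxidative phosphorylation is the main source of ATP in aerobic cells. Complex I takes electrons from NADH and complex II takes them from succinate, ubiquinone carries them to complex III, cytochrome c carries them on to complex IV, and complex IV passes them to oxygen. Complexes I, III and IV pump protons across the inner mitochondrial membrane as they do so, and ATP synthase lets the protons back and makes ATP. All complexes but complex II also hold subunits that are encoded in the mitochondrial DNA, so that the nuclear genes described here supply the remaining subunits and the factors that put the complexes together.

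The study compared killifish species with and without diapause at a stage shortly before diapause can begin, and only its African turquoise libraries of that stage are used here. The group consisted of 4 libraries (libraries 1 to 4, numbered as in the labels), each made from a pool of 8 to 10 dissected embryo bodies that still had a Kupffer's vesicle, a transient organ of somite stages, and carried 15 to 22 somites. Chorion, enveloping layer and yolk had been taken off by hand, and the embryos came from the first clutches of young parents, so that most embryos would be expected to develop without diapause. No agent or genetic change was used for these 4 libraries. Other African turquoise groups of the series, from development, diapause and gene knockouts, are not used here. Every comparison below is between genes of the same libraries or between the libraries themselves.

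Totals ranged from 25985703 to 41191533 counts per library, and 21337 to 22545 genes had at least 1 count. Libraries differed from each other far beyond counting error, with a chi-square per degree of freedom between 82.9 and 440.0 over the 6 pairs of libraries. Library 2 stood furthest from the rest, with a mean Pearson correlation of 0.942 with the other libraries against 0.959 to 0.971 for the others, and the pair formed by libraries 2 and 3 had the highest chi-square. Of the markers expected of these embryos, 7 of the 10 listed muscle and somite genes were found. All 7 reached 1 CPM (counts per 1000000 counts of the library) in every library, against 53.7% of all genes. Of the 4 listed Kupffer's vesicle and cilia genes, 3 were found and 2 reached 1 CPM in every library, against the same 53.7%. These were lrrc6, with 109, 153, 76.6 and 110 CPM in libraries 1 to 4, and ift88, with 11.4, 7.60, 9.87 and 9.86 CPM. The third, foxj1a, a ciliogenesis factor of Kupffer's vesicle, lay between 0.077 and 0.671 CPM. The labels do not say whether the pools came from separate clutches, so the spread given here is that between these libraries.

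Nearly all members were detected. A gene is called detected here when it reached 1 CPM in every library, as 60 of the 61 members did, against 53.7% of all genes in the table, and 45 of 61 reached 100 CPM in every library, against 4.78% of all genes. The exception was ndufs1, the largest iron-sulfur subunit of complex I, with 2.96, 1.14, 0.796 and 0.939 CPM in libraries 1 to 4 (77, 47, 27 and 28 counts). Its library 1 value stood apart from the other libraries by Dixon's test, as a library did for 4.71% of all detected genes. Whether further copies of ndufs1 stand under numbered identifiers without a symbol was not tested, so these values cover the named row only. With the added genes, 97 of 101 reached 1 CPM in every library and 67 reached 100 CPM. The 4 that fell short were ndufs1, cox7a1, ndufa4l2a and cox16.

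Members took 3.54%, 3.03%, 3.74% and 3.11% of all counts in libraries 1 to 4, a mean of 3.36% ± 0.34 (SD, n = 4). Library 3 was the highest and library 2 the lowest. With the added genes the shares were 5.74%, 4.59%, 6.83% and 5.32%, a mean of 5.62% ± 0.936 (SD, n = 4), in the same order of libraries. Since bulk RNA was measured, fewer cells that express a gene and less RNA per cell cannot be told apart. Cytosolic ribosomal protein genes, which took 10.1%, 10.1%, 15.8% and 12.2% of the counts, were also highest in library 3, and their part in the share of the members was examined only by leaving them out of the total, which gave 3.94%, 3.37%, 4.44% and 3.55%, again highest in library 3 and lowest in library 2.

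**Figure D1:**
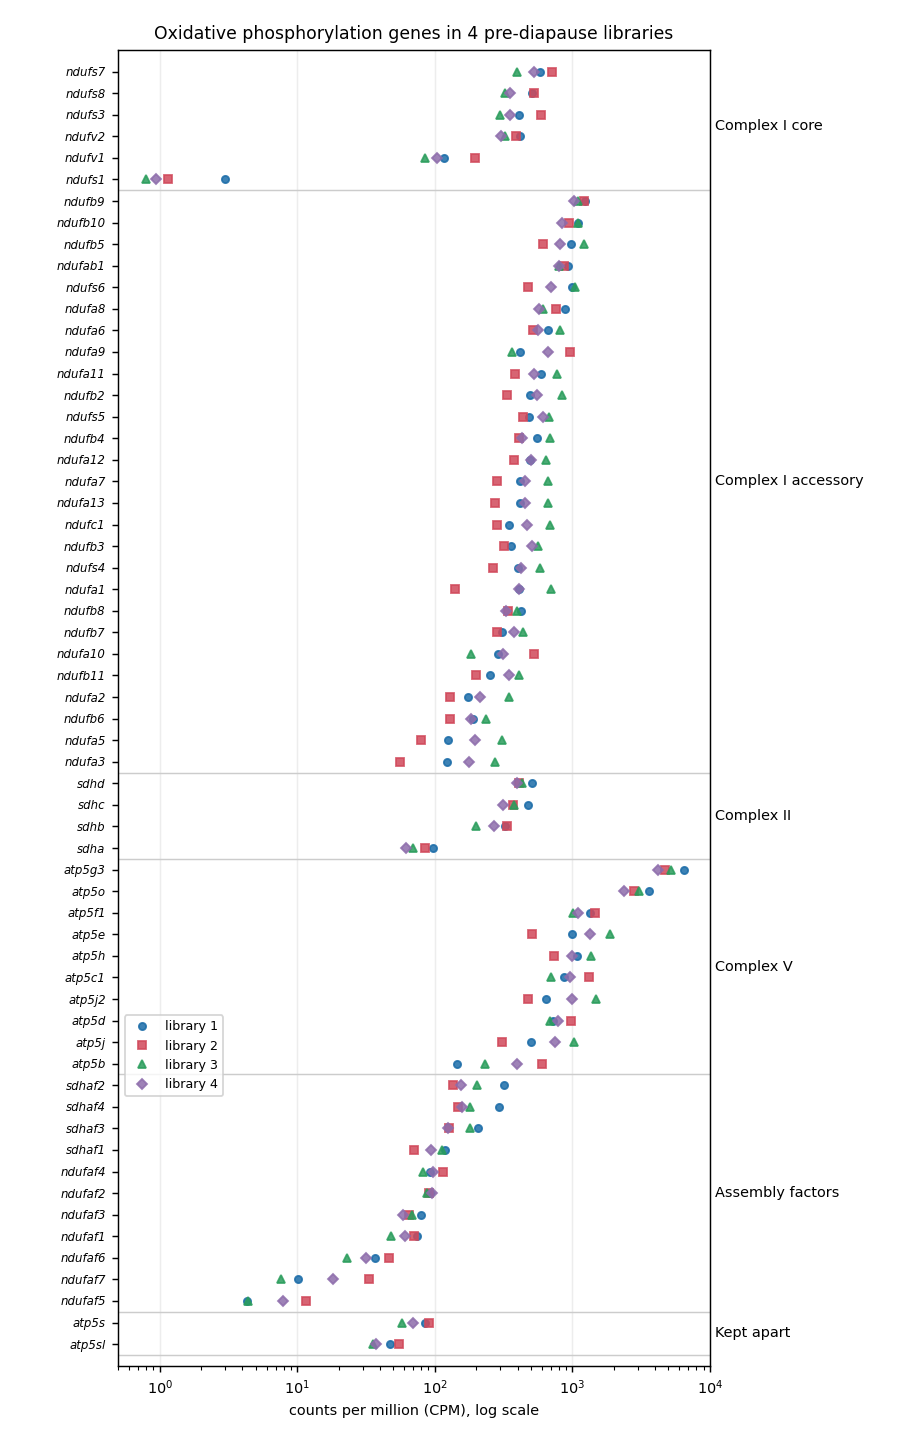
Level of 60 of the 61 members in CPM on a log scale, with 1 point per library, ordered within each class by mean level. Complex V subunits reach the highest values, the assembly factors sit mostly under 100 CPM, and ndufs1 stands far to the left of the other complex I core subunits shown.

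The deposited values are reads per gene without division by transcript length, so a difference between 2 genes or complexes in the next paragraphs is a difference in reads, to which a longer transcript contributes more, and not in the number of transcripts. Such differences were taken within each library and tested over the libraries with an exact permutation test (two-sided, flipping the sign of each library). With 4 libraries this test cannot give a p below 0.13 (rounded), so no difference could pass the threshold of 0.05, and the sign in each library and the SD are the evidence given.

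Complex V subunits carried the most reads per gene. The median log2 CPM of the 34 complex I subunits minus that of the 10 complex V subunits was -1.16, -1.25, -1.05 and -1.17 in libraries 1 to 4, a mean difference of -1.16 ± 0.08 (SD, n = 4; exact permutation p = 0.13, the smallest possible). For the 4 complex II subunits minus complex V the differences on the same scale were -1.24, -1.27, -2.10 and -1.78, a mean of -1.60 ± 0.42 (SD, n = 4; exact permutation p = 0.13). Complex I exceeded complex II by only 0.08 and 0.01 in libraries 1 and 2 but by 1.05 and 0.61 in libraries 3 and 4, so that this difference of 0.44 ± 0.49 (SD, n = 4; exact permutation p = 0.13) was smaller than its own spread. Adjustment over these 3 pairs left each p at 0.13.

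With the added genes, all 10 pairs of complexes could be compared. Complex IV, with 16 subunits, lay beside complex V, the median log2 CPM differing by -0.03 on average with 2 libraries in each direction (exact permutation p = 0.875, adjusted p = 0.875). Complex I minus complex IV was -1.12, -0.47, -1.08 and -1.02 on the log2 scale in libraries 1 to 4 (mean -0.92; exact permutation p = 0.13, adjusted p = 0.208 over the 10 pairs). Complex III, with 9 subunits, was not separated from complex I, the difference of complex I minus complex III being 0.18, -0.51, -0.28 and -0.13 log2 units (exact permutation p = 0.375). In shares of counts rather than reads per gene, complexes I, IV and V each took between 0.95% and 1.99% of a library, complex III between 0.38% and 0.69%, and complex II between 0.10% and 0.14%.

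**Figure D2:**
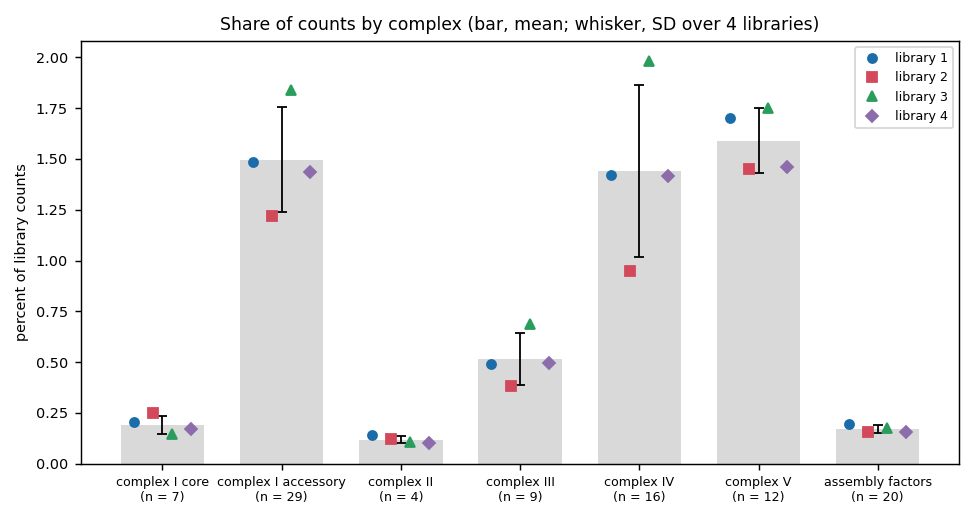
Percent of each library's counts on the subunits of each complex and on the assembly factors that met the rule, added genes included. Points are the 4 libraries, bars the mean and whiskers the SD. Library 3 lies above the bar for complex I accessory subunits and complexes III and IV, and below it for the complex I core. For complex V, libraries 1 and 3 both lie above the bar.

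ATP synthase contains a catalytic head (F1) and a membrane part with a connecting stalk (Fo and stalk). The gene with the most reads of all members was atp5g3, which encodes the c subunit of the rotating membrane ring, with 6479, 4731, 5251 and 4226 CPM in libraries 1 to 4, rank 5 of 25122 genes by mean level. Reads that align to several places were discarded by the authors, so reads shared with any near-identical c subunit gene would be missing from this value. Second came atp5o, the protein that links the head to the stalk, with 3623, 2833, 3050 and 2387 CPM and rank 26. Both were highest in library 1 and lowest in library 4.

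The catalytic beta subunit gene atp5b had far fewer reads than these, with 146, 601, 232 and 393 CPM, and was the lowest of the 10 complex V subunits chosen by row name. It was highest in library 2, where it was 4.11-fold above library 1. The added gene atp5fa1, for the alpha subunit that alternates with beta in the head, was lower still at 112, 189, 109 and 142 CPM, and it too peaked in library 2. Among the complex V subunits by row name, next above atp5b was atp5j (coupling factor 6 of the stalk). It had 500, 307, 1029 and 748 CPM and peaked in library 3 instead. Of the 4 F1 genes by row name, 3 were highest in library 2, against 34.7% of all genes at 1 CPM or more in every library. The exception was the epsilon subunit gene atp5e with 997, 506, 1876 and 1344 CPM. The added gene atp5if1b encodes an inhibitor that binds the head and stops ATP hydrolysis when the membrane potential falls, and it had 628, 256, 917 and 559 CPM, highest in library 3 and lowest in library 2.

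Complex I is built from core subunits, which carry the flavin, the iron-sulfur clusters and the quinone site, and from accessory subunits around them. Accessory subunits led by reads, headed by ndufb9 with 1229, 1215, 1098 and 1024 CPM and ndufb10 with 1096, 947, 1102 and 838 CPM, both parts of the membrane arm. For ndufb9 the libraries were within 1.20-fold of each other. The core subunits whose iron-sulfur clusters lead to the quinone site, ndufs7 and ndufs8, had 583, 707, 393 and 523 CPM and 513, 523, 324 and 354 CPM, respectively. The gene with the fewest reads was another core subunit, ndufs1 (above). The NADH-binding subunit gene ndufv1 had 116, 196, 85.3 and 104 CPM, with library 2 highest.

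Complex II is the succinate dehydrogenase of the citric acid cycle and is wholly nuclear-encoded. Its membrane anchors had the most reads, sdhd with 506, 408, 433 and 394 CPM and sdhc with 475, 373, 378 and 311 CPM. The iron-sulfur subunit gene sdhb had 326, 335, 201 and 270 CPM, and the flavoprotein gene sdha, which holds the succinate site, was lowest with 96.7, 84.6, 69.7 and 61.6 CPM. Highest values fell in library 1 for sdha, sdhc and sdhd (3 of 4, against 33.1% of all detected genes), and lowest values in library 4 for the same 3 genes (against 10.5%). Under TMM scaling, which adjusts libraries to the bulk of genes, 2 of the 4 were highest in library 1 and 3 lowest in library 4. The matching counts over the 13479 detected genes were 2729 and 1848. This order differed from that of complex I, with sdhb alone highest in library 2 and lowest in library 3, as the core subunits of complex I mostly were.

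The added complex III genes fell into large subunits (the cytochrome c1 gene cyc1 and the core protein genes uqcrc1, uqcrc2a and uqcrc2b) and small subunits. The small subunits had the most reads, uqcrq with 1068, 810, 1761 and 1108 CPM and uqcrb with 1232, 593, 1548 and 928 CPM. The lowest were uqcrc2a with 36.6, 50.4, 27.4 and 40.9 CPM and uqcrc2b with 95.9, 224, 84.5 and 146 CPM. Between libraries, cyc1 (187, 629, 135 and 343 CPM) and uqcrc1 (102, 332, 69.6 and 152 CPM) moved over 4.65-fold and 4.78-fold, each with library 2 highest. The widest range belonged to the small subunit gene uqcr11, with 368, 92.0, 693 and 483 CPM, 7.53-fold from library 2 to library 3.

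Among complex IV genes the most reads were on cox6a1, with 2697, 1951, 3420 and 2301 CPM (rank 39 of 25122), and cox4i1, with 2648, 2269, 2140 and 1701 CPM (rank 53). The lowest were cox7a1 with 1.04, 0.461, 0.530 and 0.402 CPM and ndufa4l2a with 0.539, 0.534, 0.413 and 0.268 CPM. These values are the ends of a spread that followed paired forms of the same subunit, in which a widely expressed and a more restricted gene are known from mammals.

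In each of the 6 pairs, 1 form carried most reads, with the same form ahead in all 4 libraries. The ratio of cox4i1 to cox4i2, the form linked in mammals to low oxygen and to lung, was 5.14 ± 0.98 log2 units (SD, n = 4), with cox4i2 at 35.3, 102, 41.8 and 95.1 CPM. For cox6a1 over cox6a2, the latter the heart and skeletal muscle form of mammals, the ratio was 7.48 ± 0.15, and cox6a2 had 15.7, 9.32, 20.5 and 13.5 CPM. The ratio of cox7a2b to cox7a1, the latter again the muscle form of mammals, was 11.67 ± 0.77. The largest gap apart from that pair was ndufa4a over ndufa4l2a at 11.23 ± 0.92. In mammals, the ndufa4 protein is now placed in complex IV, and its relative NDUFA4L2 is induced by low oxygen.

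The cox6b pair ran opposite to what the names in mammals would imply, where COX6B1 is the common form and COX6B2 the testis form. In these embryos the gene with the symbol cox6b2 had 1672, 507, 1773 and 1335 CPM and the gene with the symbol cox6b1 had 2.62, 2.16, 3.21 and 3.42 CPM. The ratio of cox6b1 to cox6b2 was -8.71 ± 0.64 log2 units (SD, n = 4). Both symbols come from RefSeq, and which gene corresponds to which mammalian form was not tested. The ratio of uqcrc2a to uqcrc2b was -1.75 ± 0.32 log2 units. All 6 ratios had an exact permutation p of 0.13, the smallest possible, also after adjustment over the 6 pairs, and they compare reads without length correction. The separate gene cox8b, a muscle form in many mammals, had 5.66, 3.13, 9.28 and 6.30 CPM.

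**Figure D3:**
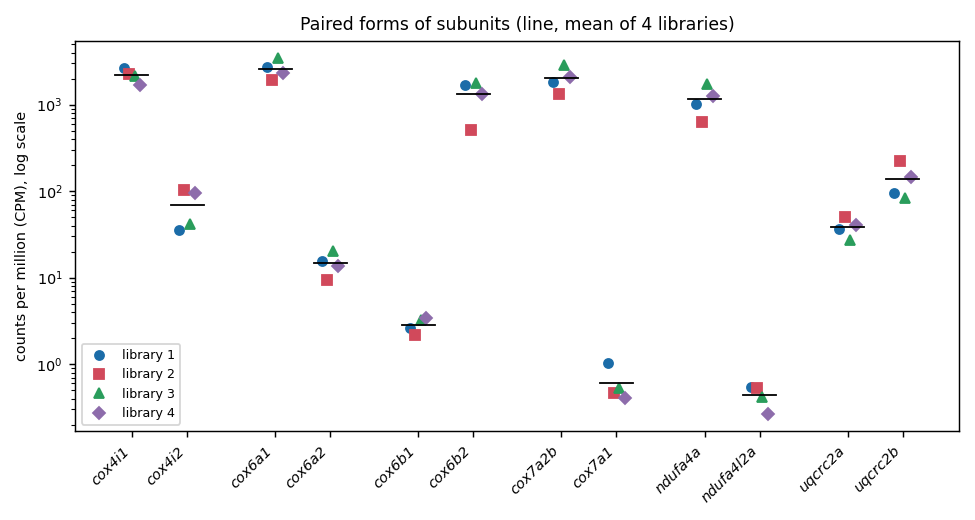
Levels in CPM on a log scale of the genes of the 6 pairs of related subunits, with 1 point per library and a line at the mean. In each pair the 4 libraries of the higher gene lie above the 4 of the lower gene, and the gap is narrowest for uqcrc2a and uqcrc2b.

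By group median, assembly factors had fewer reads than subunits. Factors here and in the next paragraph are those that met the rule and the added genes. Single genes could run the other way. The lowest mean of a complex II factor was 98.9 CPM, against 78.2 CPM for sdha. The lowest complex I factor had a mean of 7.05 CPM, against 1.46 CPM for ndufs1. For complex I the median log2 CPM of subunits exceeded that of the 7 factors by 2.48, 2.45, 3.58 and 2.91 in libraries 1 to 4, a mean of 2.85 ± 0.53 (SD, n = 4; exact permutation p = 0.13). For complex II the excess was 0.95 ± 0.37 (SD, n = 4; exact permutation p = 0.13), positive in all 4 libraries. Over all subunits and factors by row name it was 2.53 ± 0.30. With the added genes, the mean excess was 1.55 log2 units for complex III with its 2 factors and 4.97 for complex IV with its 7 factors, positive in each of the 4 libraries for both.

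The highest complex I factor was ndufaf4, with 92.9, 116, 81.5 and 97.8 CPM, and the lowest ndufaf5, which in humans hydroxylates NDUFS7, with 4.35, 11.6, 4.36 and 7.91 CPM. The most even member of all was ndufaf2, a chaperone of late complex I assembly, with 92.3, 90.9, 88.0 and 96.1 CPM and a coefficient of variation of 3.70%. In contrast, ndufaf7 had 10.1, 33.3, 7.66 and 18.3 CPM. This gene, which encodes a mitochondrial methyltransferase, was high in libraries 2 and 4 and low in libraries 1 and 3. Of the complex II factors, sdhaf2, which attaches the flavin to sdha, was highest with 317, 136, 202 and 156 CPM, and sdhaf1 was lowest with 118, 71.1, 113 and 93.3 CPM. All 4 complex II factors had their highest value in library 1 on the library total, against 33.1% of all detected genes. Under TMM scaling only 2 of 4 did, and the other 2 were highest in library 3. On that scale 2729 of 13479 detected genes were highest in library 1 and 3849 in library 3. For the added genes, uqcc2 had 221, 115, 431 and 260 CPM and uqcc1 120, 215, 73.0 and 134 CPM, the former highest in library 3 and the latter in library 2, although both act early in complex III assembly in other species. Among complex IV factors, cox19 was highest with 134, 69.1, 127 and 93.6 CPM and cox16 lowest with 0.847, 1.29, 2.39 and 2.05 CPM.

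Relative to the groups of genes most like them, the 48 subunits by row name lay between mitochondrial and cytosolic ribosomal proteins. Their median log2 CPM exceeded that of 74 mitochondrial ribosomal protein genes by 1.32, 1.01, 1.78 and 1.25 in libraries 1 to 4 (mean 1.34 ± 0.32, SD, n = 4). The difference from 67 cytosolic ribosomal protein genes was -1.53, -1.48, -1.78 and -1.87 (mean -1.67 ± 0.19, SD, n = 4). For both comparisons the exact permutation p was 0.13, the smallest possible.

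On the library total, the members varied between libraries about as much as other genes. The median coefficient of variation over the libraries was 24.9% for the 60 detected members and 25.1% for the 13479 genes at 1 CPM or more in every library, although the median counting error of the members was only 0.856%. Under TMM scaling the medians were 28.5% and 24.5%, without library 1 they were 28.5% and 24.4%, and with the added genes the median of the 97 detected genes was 30.1%. Quartiles of the members on the library total were 19.4% and 39.2%. Among the most variable members were ndufaf7 (66.7%) and ndufa3 (58.6%), an accessory subunit of the membrane arm with 122, 55.9, 274 and 177 CPM.

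Within complex I the variation had, at the median, opposite directions in accessory and core subunits. Transcript lengths were not used here, so their part in this split was not tested. Of the 27 accessory subunits, 21 were highest in library 3, against 14% of all detected genes, and 20 were lowest in library 2, against 36.6% of all detected genes. The widest range of the 27, 5.01-fold, was that of ndufa1, a small subunit of the membrane arm, with 407, 140, 700 and 410 CPM. The median deviation of an accessory subunit from its own mean was 0.00, -0.48, 0.43 and 0.07 log2 units in libraries 1 to 4. Of the 6 detected core subunits, 5 were highest in library 2, against 34.7% of all detected genes, and 4 were lowest in library 3, against 38.7%. Their median deviations were 0.08, 0.48, -0.43 and -0.20 log2 units. Directly compared, library 3 exceeded library 2 in 22 of 27 accessory subunits and in 0 of 6 core subunits, against 45.1% of all detected genes.

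Several accessory subunits did not follow that order. The largest exceptions were ndufa9, a subunit beside the quinone site, with 417, 959, 362 and 670 CPM, and ndufa10, of the membrane arm, with 287, 526, 183 and 311 CPM, which were highest in library 2 and lowest in library 3. Nearly level were ndufab1, the acyl carrier protein of mitochondria, with 937, 868, 799 and 805 CPM, and ndufb9 (above). Of the 7 complex I assembly factors, 4 were highest in library 2 (against 34.7% of all detected genes) and 5 lowest in library 3 (against 38.7%). The library 3 level exceeded that of library 2 in 1 of 7, against 45.1%. With TMM scaling these counts were 5, 3 and 2 of 7, against 4878, 3354 and 6894 of 13479 detected genes.

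**Figure D4:**
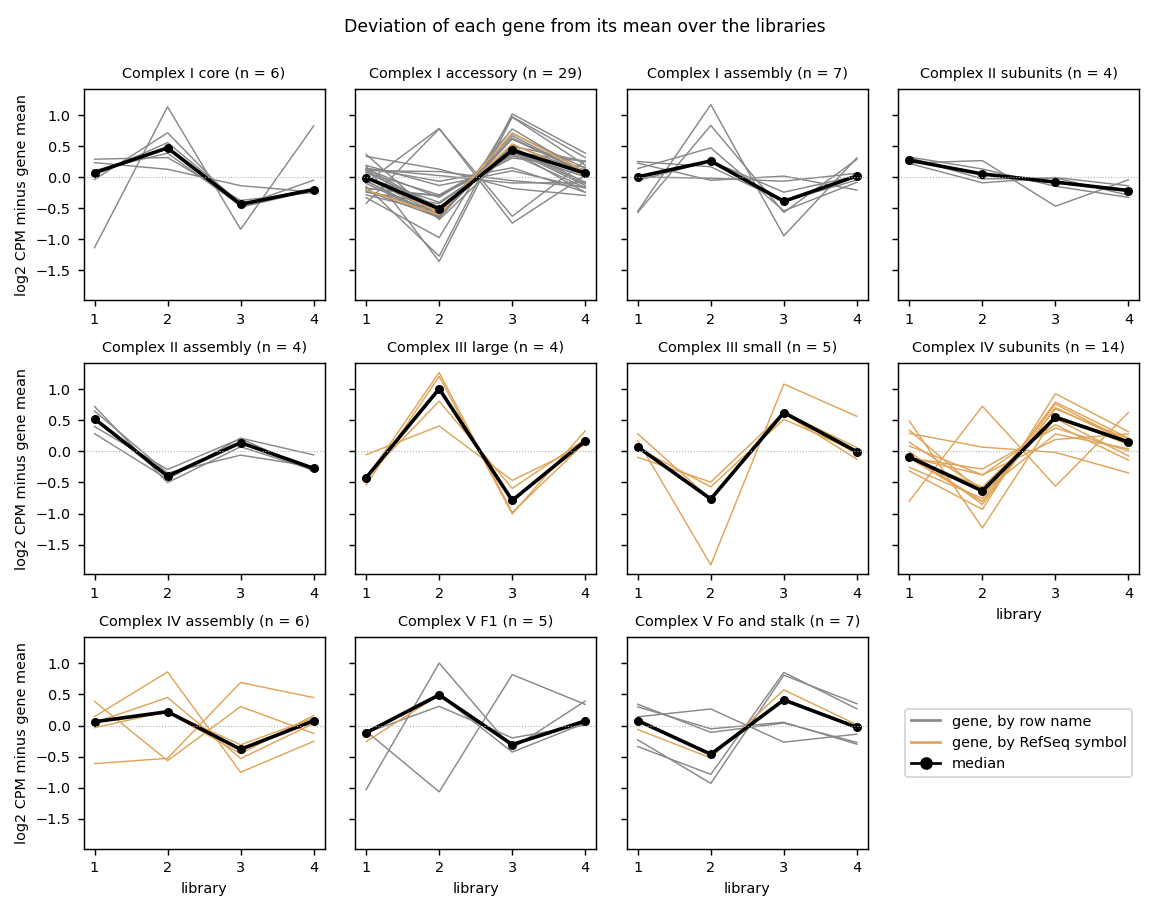
Deviation of each gene's log2 CPM from its mean over the libraries, by class, with genes chosen by row name in grey, added genes in orange and the class median in black. The medians of complex I accessory, complex III small, complex IV, and Fo and stalk subunits rise from library 2 to library 3. Those of complex I core, complex III large and F1 subunits fall.

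The added genes showed a like split. Over all detected genes, 34.7% were highest in library 2 and 38.7% lowest in library 3. In the other direction, 14% were highest in library 3 and 36.6% lowest in library 2. All 4 large subunits of complex III were highest in library 2 and lowest in library 3, with median deviations of -0.42, 1.01, -0.79 and 0.17 log2 units, while all 5 small subunits were highest in library 3 and lowest in library 2, with 0.07, -0.77, 0.63 and 0.00. Of the 14 detected complex IV subunits, 10 were highest in library 3 and 12 lowest in library 2. The exceptions included cox4i2, which was highest in library 2, and cox4i1, which was highest in library 1. Of the 6 detected complex IV assembly factors, 4 were highest in library 2 and 4 lowest in library 3.

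The counts were also taken under another scaling and without library 2 or 3. TMM scaling moved all genes by -0.11, -0.01, 0.13 and -0.02 log2 units in libraries 1 to 4. It raised library 3 and lowered the others, so no gene highest in library 3 could lose that place. Under it 23 of 27 accessory subunits were highest in library 3, against 28.6% of all detected genes. Of the core subunits, 5 of 6 were highest in library 2, against 36.2%. On that scale 3 of 6 core subunits and 3 of 4 large subunits of complex III were lowest in library 3. On the library total these counts were 4 of 6 and 4 of 4. Of the 13479 detected genes, 3354 were lowest in library 3 under TMM. Library 3 still exceeded library 2 in 0 of 6 core and 0 of 4 large subunits, against 6894 of 13479 detected genes. Without library 2, 21 of 27 accessory subunits were highest in library 3, against 15.6% of all detected genes. Without library 3, 20 of 27 were lowest in library 2, against 41.2%. A gene highest in library 3 stays so when library 2 is left out. In the same way, a gene lowest in library 2 stays so when library 3 is left out. Neither count could therefore fall, and neither tests the split. These counts describe 4 pools of embryos, and no test over libraries can be made of them.

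Other gene groups moved with the same libraries. Of the 67 cytosolic ribosomal protein genes, 53 were highest in library 3 and 45 lowest in library 2, against 14% and 36.6% of all detected genes. Their median deviations were -0.21, -0.38, 0.48 and 0.08 log2 units. In libraries 2 to 4 these were close to those of the accessory subunits, and in library 1 they were lower. Of the 74 mitochondrial ribosomal protein genes, 20, 31, 18 and 5 were highest in libraries 1 to 4. Over the 13479 detected genes these counts were 4464, 4678, 1889 and 2448. The median deviations of the mitochondrial ribosomal protein genes stayed between -0.06 and 0.06. Markers of other tissues also differed. The summed level of the 3 found of 6 enveloping layer genes was 250, 150, 318 and 245 CPM. That layer had been removed by hand, and which tissue gave these reads was not tested. For the 5 found of 8 yolk syncytial layer and liver genes the sum was 73.4, 13.4, 72.1 and 19 CPM. It came mostly from the apolipoprotein gene apoa2, with 58.6, 7.57, 51.9 and 9.59 CPM, while mttp and fabp1 had 1.89 CPM or less. The 7 found of 10 muscle and somite genes summed to 762, 1737, 498 and 960 CPM, highest in library 2 and lowest in library 3, mostly through the actin gene actc1a. The 5 found of 7 heart genes summed to 382, 215, 403 and 238 CPM, mostly from the cardiac myosin light chain gene myl7, with gata5 and hand2 at 1.15 CPM or less. The cardiac factor gene gata4, on the same list, ran the other way with 0.885, 8.04, 1.12 and 5.00 CPM. The part of these groups in the library order of the members was not tested.

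Genes that serve the same pathway outside the rule were mostly present. Of the 32 listed further assembly factors, 27 were found and 26 reached 1 CPM in every library, against 53.7% of all genes. The exception was pet117 with 0, 1, 1 and 0 counts. Of those 26, 15 were highest in library 2 (against 34.7% of all detected genes) and 14 lowest in library 3 (against 38.7%). The highest by CPM was higd2a, a factor of supercomplex formation, with 412, 247, 560 and 390 CPM, and bcs1l, which inserts the iron-sulfur protein of complex III, had 100, 264, 64.3 and 153 CPM.

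All 10 found of the 11 listed ubiquinone synthesis genes reached 1 CPM in every library, against 53.7% of all genes. Of these 10, 7 were highest in library 2, against 34.7% of all detected genes. Among them coq9, a lipid-binding protein of the pathway, had 131, 221, 96.2 and 148 CPM. Of 14 listed regulators of mitochondrial genes 12 were found and 11 detected, against 53.7% of all genes. They were led by tfam, which packages and transcribes mitochondrial DNA, with 1357, 1542, 984 and 1111 CPM. The gene ppargc1b was only just detected, with 1.39, 1.46, 1.09 and 1.14 CPM. The coactivator gene ppargc1a, a driver of mitochondrial biogenesis in mammals, was near the detection limit set here, with 1.77, 0.777, 2.00 and 1.17 CPM. Of 10 listed carriers 6 were found and 4 detected, not far from the 53.7% over all genes. The phosphate carrier gene slc25a3, which feeds ATP synthase, had 5.93, 71.1, 23.2 and 50.4 CPM, and the adenine nucleotide carrier gene slc25a5 had 103, 117, 63.2 and 71.0 CPM. By contrast slc25a4, the heart and muscle form of that carrier in mammals, had at most 6 counts in any library. The subunits encoded in mitochondrial DNA are not analysed here.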

How the data were processed

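RNA-seq of 4 African turquoise libraries was used. The authors deposited read counts per gene as whole numbers without normalization. Their methods and the submitters' processing notes name Trim Galore 0.4.5, STAR 2.7.1a, SAMtools 1.5 (reads aligning to several loci removed, so near-identical copies lose reads), featureCounts of Subread 2.0.1 and DESeq2 1.30.1, whose normalization the deposited counts do not carry. Their resource list names Nfu_20140520 as the African turquoise reference genome. The lyretail and red-striped libraries are not used here, since their features carry no gene symbols.

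Counts were divided by each library total to give CPM (pandas 2.3.3 and numpy 2.4.6 under Python 3.11.15). Plots used matplotlib 3.10.9 and TMM factors came from edgeR 4.0.16 (R 4.3.3). All 25122 rows name a gene. Of 14589 numbered identifiers, 10480 matched RefSeq entries for assembly NfurGRZ-RIMD1 and 5257 carry a symbol in them. These symbols gave names and chose the added genes, and some genes of the lists were found through them. A gene was called detected at 1 CPM in every library, and 1 count was added before taking log2. Members and lists were chosen with earlier results of these data known. The plan divided levels by coding length; lengths were not used here, so tests and the choice of named genes rest on CPM. Named by rule were, per complex, the 2 highest and 2 lowest subunits, the highest and lowest assembly factor, all paired forms, atp5if1b, the 3 most variable detected members, and members under 1 CPM in a library. Of the genes the rule names, 1 is not reported here. Other genes named were chosen after their values were seen. The planned motif and protein descriptions were not run. Group differences were tested over 4 libraries with an exact permutation test (two-sided, all 16 sign patterns), with Benjamini-Hochberg adjustment within a family. Procedures were tested on simulated data. Alternatives covered the detection limit, scaling, pseudocount, low-count filter, summary over genes, placing of ndufa4 genes, the added genes and leaving out each library. With 25985703 to 41191533 counts per library, counting error was small beside the spread between libraries. Amplified reads without molecular identifiers are not independent molecules.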

Additional observations from a re-analysis of the deposited data

Results flagged for a closer look

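The level of ndufs1, the iron-sulfur core subunit of complex I, was 2.96 CPM in library 1 and 1.14, 0.796 and 0.939 CPM in libraries 2 to 4, and library 1 lay further from the others than Dixon's 95% limit for 4 samples allows. These values rest on 77, 47, 27 and 28 counts. It was the only one of 62 sets of 4 values examined in this way to pass the limit, where chance alone gives about 1 in 20, and over all detected genes 4.71% passed it.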

How the results depend on the processing

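Across 117 combinations of a result and an alternative setting, no difference changed direction. Shares, spreads and counts of genes among them have no direction. For the complex differences by row name, TMM scaling, the placing of ndufa4 genes and the low-count filter left the values unchanged. Those settings could not test the direction. By mean instead of median log2 level, complex I minus V became -1.71 and complex II minus V -2.14, each a shift larger than its SD between libraries, and with the added genes complex I minus V became -0.95 and all subunits minus all assembly factors 2.93, again by more than the SD. The number of members detected in every library rose to 97 when genes with a RefSeq symbol were added (101 genes in place of 61). The share of counts on members became 5.62% with the added genes and 3.82% when cytosolic ribosomal protein genes were left out of the total, a setting chosen after seeing the data. The counts of genes highest or lowest in a library under TMM and without library 2 or 3 were likewise added after seeing the data. With each library left out, there were 60 to 60 detected members, a share of 3.23% to 3.46% and a median coefficient of variation of 21.2% to 29.1%. For the differences between complexes, the same step gave 0.23 to 0.58 log2 units for complex I minus II, -1.19 to -1.13 for I minus V and -1.72 to -1.43 for II minus V. With 3 libraries the exact permutation test cannot go below 0.25, so leaving out a library says nothing about significance. No paired analysis was possible because the results come from a single group of libraries with no second group to pair it with. Among the genes named, those with under 100 counts in every library, such as ndufs1, cox7a1, ndufa4l2a, cox16, ppargc1a, ppargc1b, foxj1a, gata5, hand2, pet117 and slc25a4, are limited by depth.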
